A study of Homo sapiens with 9 samples.

Results

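The difference between the transcriptomes of H69 cells exposed to the inhibitor PIK75 and to the inhibitor TGX221 was measured directly, without passing through the vehicle control. The comparison set the 3 PIK75 arrays, numbered 1, 3 and 5, against the 3 TGX221 arrays, numbered 2, 3 and 5, which are 6 of the 9 arrays of the series. All 19775 genes with at least 1 probe set annotated to exactly 1 gene symbol were included. H69 is an established human small cell lung cancer line that grows with neuroendocrine features.

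Class I phosphoinositide 3-kinases (PI3Ks) pair a catalytic subunit with a regulatory subunit, make the membrane lipid that recruits AKT, and through AKT and mTOR promote growth, glucose use and lipid synthesis while holding FOXO factors out of the nucleus. PIK75 mainly blocks the alpha catalytic isoform, with DNA-PK among its other kinase targets, whereas TGX221 mainly blocks the beta isoform. Small cell lung cancer cells carry neuroendocrine secretory genes and divide rapidly.

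Cells were held for 24 h in complete medium with DMSO vehicle, with 100 nM PIK75, or with TGX221, whose labelled dose is 1 mM. The treatment field of the control arrays reads none, whereas the protocol names DMSO. The doses differ, and no source allows a check of the unit given for TGX221, so differences between the compounds and between their doses cannot be told apart. All arrays come from 1 line, and nothing in the labels says that arrays of a group came from separate cultures. The p-values therefore measure the spread between these arrays, which may be technical, and their number limits the precision.

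The values are log2 intensities made by robust multi-array averaging (RMA), on which a difference of 1 is a doubling. Arrays correlated across genes at 0.9964 to 0.9976 within PIK75, at 0.9976 to 0.9985 within TGX221, and at 0.9758 to 0.9816 between them. Genes are not independent replicates in these correlations. The median standard deviation (SD) of a gene over 3 arrays was 0.0784 with PIK75 and 0.0627 with TGX221. The interquartile range of gene levels was 2.48 to 2.57 on the PIK75 arrays and 2.71 to 2.77 on the TGX221 arrays. Hybridization spike-in probe sets read 11.52 to 11.56 with PIK75 and 11.18 to 11.28 with TGX221, and poly-A spike-ins read 7.99 to 8.16 and 7.86 to 8.01. The actin 3′ minus 5′ signal, a measure of RNA integrity, was 0.47 to 1.13 with PIK75, highest on array 5, and 0.26 to 0.41 with TGX221. The same measure for GAPDH reached only 0.08 with PIK75 and 0.02 with TGX221, and the group means differed by 0.02. All 12 measured markers of neuroendocrine small cell lung cancer were present, with gene means of 9.34 to 13.09, and 7 of them were lower with PIK75. Among markers of other cells, 1 of 2 B cell, 2 of 3 myeloid, 3 of 6 fibroblast, 3 of 4 endothelial and 1 of 3 alveolar genes were higher with PIK75, and none of 4 T cell, 2 squamous and 2 erythroid genes was called. Over all genes, 25.1% were higher and 22.3% lower with PIK75. The summed fibroblast level read 10.70 to 10.76 with PIK75 and 10.46 to 10.56 with TGX221, the endothelial level 9.74 to 9.82 and 9.46 to 9.52, and the myeloid level 8.42 to 8.52 and 8.23 to 8.28. A background signal keeps every array level above 0, so none of these markers can be read as absent. The part of these markers, the spike-in difference and the actin signal in the results was not tested. In bulk RNA, fewer cells of a type and less RNA per cell cannot be told apart.

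At an adjusted p below 0.05, 9379 of 19775 genes differed between the inhibitors, which is 47.4%. With PIK75, 4967 genes (25.1%) were higher and 4412 (22.3%) were lower. The 2 directions had different sizes. At least a 2-fold difference was reached by 64 genes higher with PIK75 (0.324%) and by 513 lower (2.59%), and at least 1.5-fold by 343 (1.73%) and 1669 (8.44%). The median difference over all genes was 0.06, with 5% of genes below -0.78 and 5% above 0.39. The 3 values of one inhibitor lay outside those of the other for 10898 genes (55.1%), 6127 higher (31%) and 4771 lower (24.1%). The smallest p that an exact permutation test of 3 arrays against 3 can give is 0.1, so single genes rest on the fit across all genes.

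The difference depended on the level of a gene. Among genes in the lowest of 4 equal classes of brightness, 2.87% were lower and 21.6% higher with PIK75. In the brightest class, 45.8% were lower and 22.6% higher. The split between directions also moved with scaling: 47% of the genes called were lower as deposited, 84.7% after the arrays were centred on the poly-A spike-ins and 95% after centring on the hybridization spike-ins. Those settings shifted the median of all genes to -0.09 and -0.23. Lists of genes are therefore read below against the median of all genes and the shares of all genes called.

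**Figure D1:**
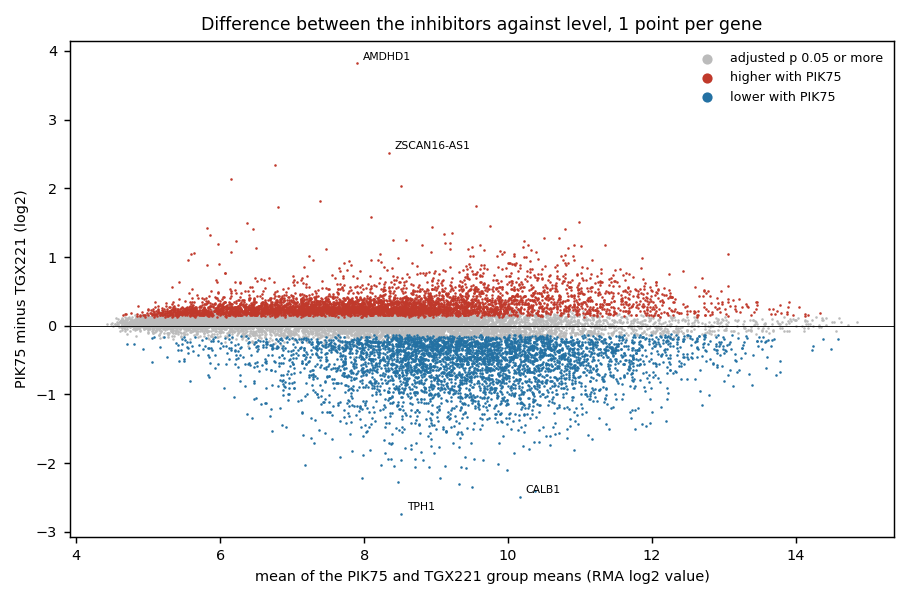
PIK75 minus TGX221 difference (log2, vertical) against the mean of both group means (RMA log2 value, horizontal), 1 point per gene for 19775 genes, red for the 4967 higher and blue for the 4412 lower with PIK75. Large negative differences lie mostly among brighter genes, and a few genes, led by AMDHD1 at 3.82, stand far above the rest.

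Both comparisons with the control share the 3 control arrays, so their values are only set side by side. Against control, 11947 genes (60.4%) differed with PIK75 and 239 (1.21%) with TGX221. The TGX221 calls were 160 higher (0.809%) and 79 lower (0.399%). At least 2-fold, 0.243% of genes were higher and 3.57% lower with PIK75. No gene differed 2-fold with TGX221, 3 were at least 1.5-fold lower (0.0152%), and 3620 had an unadjusted p below 0.05. Differences of TGX221 from control ran from -0.80 to 0.56.

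AMDHD1, which encodes an enzyme of histidine breakdown, had the largest difference in either direction. It read 10.05, 9.75 and 9.62 on the PIK75 arrays, 5.93, 5.91 and 6.13 on the TGX221 arrays, and 5.98, 5.77 and 6.10 on the control arrays. The TGX221 and control values overlapped, and every PIK75 value lay more than 3 units above them. The difference was 3.82 (SE 0.11, adjusted p = 4.37e-10). No detection calls were used here, and the TGX221 and control levels lie in the lowest class of brightness, so no fold is given and the difference may understate the change. The noncoding RNA ZSCAN16-AS1 read 9.83, 9.41 and 9.59 with PIK75 and 7.23, 7.19 and 6.87 with TGX221, a difference of 2.52 (SE 0.11, adjusted p = 5.34e-09). LINC00326, another noncoding RNA, was the most variable of the leading genes, at 8.40, 7.82 and 7.58 with PIK75 and 5.53, 5.67 and 5.57 with TGX221 (2.34, SE 0.152). ZC3H12D, of a family of RNA-degrading zinc finger proteins, rose from 5.00, 5.10 and 5.16 with TGX221 to 7.46, 7.25 and 6.94 with PIK75. The TGX221 levels of LINC00326 and ZC3H12D also lie in the range of the lowest class of brightness.

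LOC101929774 lay on opposite sides of the control with the 2 inhibitors. It read 9.67, 9.48 and 9.41 with PIK75, 7.51, 7.51 and 7.45 with TGX221 and 7.87, 7.96 and 7.74 in the control. TGX221 was lower than control by a test of its own (-0.37, adjusted p = 0.0441), and PIK75 was higher by 1.66. The other genes among the 15 highest were ALDH8A1, an aldehyde dehydrogenase (1.82), CFAP43, a protein of motile cilia (1.73), LEFTY1, a secreted inhibitor of Nodal (1.58), SLC3A2, which pairs with amino acid transporters (1.51), CCDC181 (1.5), APOLD1 (1.44) and LOC100422526 (1.42). Genes of RNA handling were also present, namely SNRNP48 of the minor spliceosome (1.45), the splicing factor SLU7 (1.41) and NUP58 of the nuclear pore (1.74). For NUP58, a pair of its other probe sets was lower with PIK75, by -0.42 and -0.88, so its direction differs between probe sets.

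The largest negative difference was in TPH1, which makes serotonin from tryptophan. TPH1 read 7.3, 6.98 and 7.16 with PIK75, 9.79, 10.08 and 9.79 with TGX221 and 9.80, 9.90 and 10.23 in the control. PIK75 stood apart from the other 2 groups, which overlapped, and the difference was -2.74 (SE 0.115, 6.70-fold lower, adjusted p = 4.35e-09). CALB1, the calcium-binding protein calbindin, read 8.87, 8.95 and 8.95 with PIK75 and 11.41, 11.43 and 11.40 with TGX221. Its arrays differed by less than 0.1 within each inhibitor, and its difference of -2.49 had an SE of 0.0522 and the smallest p of the named genes (adjusted p = 6.67e-11). MTURN, a neural differentiation factor, read 9.43, 9.06 and 9.02 with PIK75 and 11.59, 11.62 and 11.53 with TGX221, a difference of -2.41 (SE 0.0893).

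The rest of the 15 lowest included the tight junction protein CLDN11 (-2.34), the ion cotransporter SLC12A2 (-2.07), the sorting receptor SORL1 (-2.06), the kinase PRKCA (-2.06), the secreted protein CTHRC1 (-2.04) and the matrix protein FREM2 (-2.04). One other probe set each of CLDN11, SORL1 and PRKCA was called in the opposite direction. A further probe set was called lower for SORL1 (-0.89) and PRKCA (-0.55). None was for CLDN11 (others at 0.05 and 0.22), so its difference rests on 1 probe set. The remaining members were the noncoding RNA DRAIC (-2.30), the ubiquitin ligase receptor DCAF16 (-2.28), the calmodulin-binding PCP4 (-2.22), the ciliary protein DRC8 (-2.22), the disulfide isomerase relative AGR3 (-2.10) and STAG3L4 (-2.06). For all 15 the TGX221 mean lay within 0.21 of the control mean. These 30 genes were taken from the 8601 called genes whose arrays did not overlap and that averaged at least 6 in either inhibitor. The genes just inside and just outside the 15 stood at 1.41 and 1.41 above, and at -2.04 and -2.03 below.

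**Figure D2:**
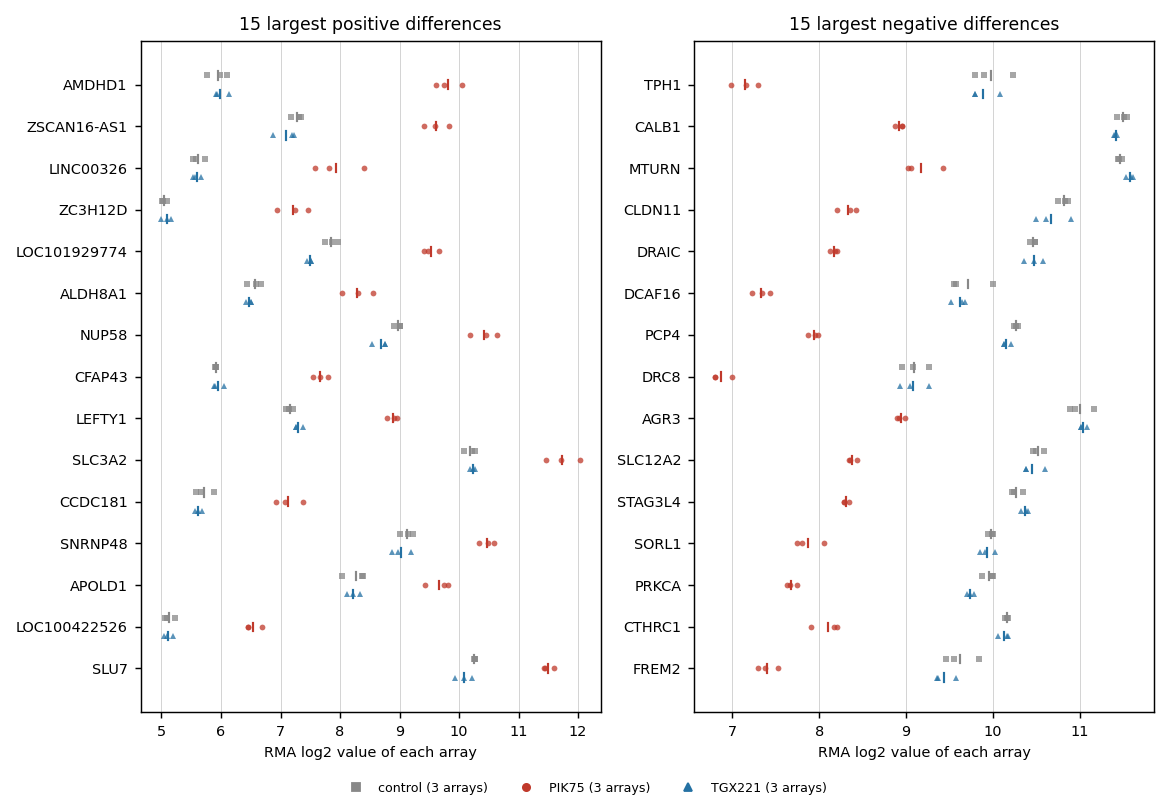
RMA log2 value of each array (horizontal) for the 15 genes with the largest positive and the 15 with the largest negative PIK75 minus TGX221 difference, with squares for control, circles for PIK75, triangles for TGX221 and ticks for the mean of 3 arrays. Every circle lies apart from the triangles, and for most genes the triangles and squares overlap, whereas for LOC101929774 the triangles (7.45 to 7.51) lie below the squares (7.74 to 7.96).

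Of 40 gene lists, 22 held more genes lower than higher with PIK75 and 15 more higher than lower. The lists name 1112 genes, of which 1007 were measured. Over all genes 25.1% were higher and 22.3% lower, and several lists lay near both shares. Among them were non-neuroendocrine genes (21.4% and 25%), D cyclins and CDK inhibitors (26.7% and 20%), and caspases and their regulators (31.8% and 27.3%). In the brightest class of all genes 45.8% were lower. Lists above that share included cholesterol synthesis (78.9%), fatty acid synthesis (68.8%), NRF2 regulators and targets (60%) and HIF1 targets (57.1%). Homologous recombination and Fanconi repair (57.1%) and the respiratory chain (55.6%) were also above it.

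**Figure D3:**
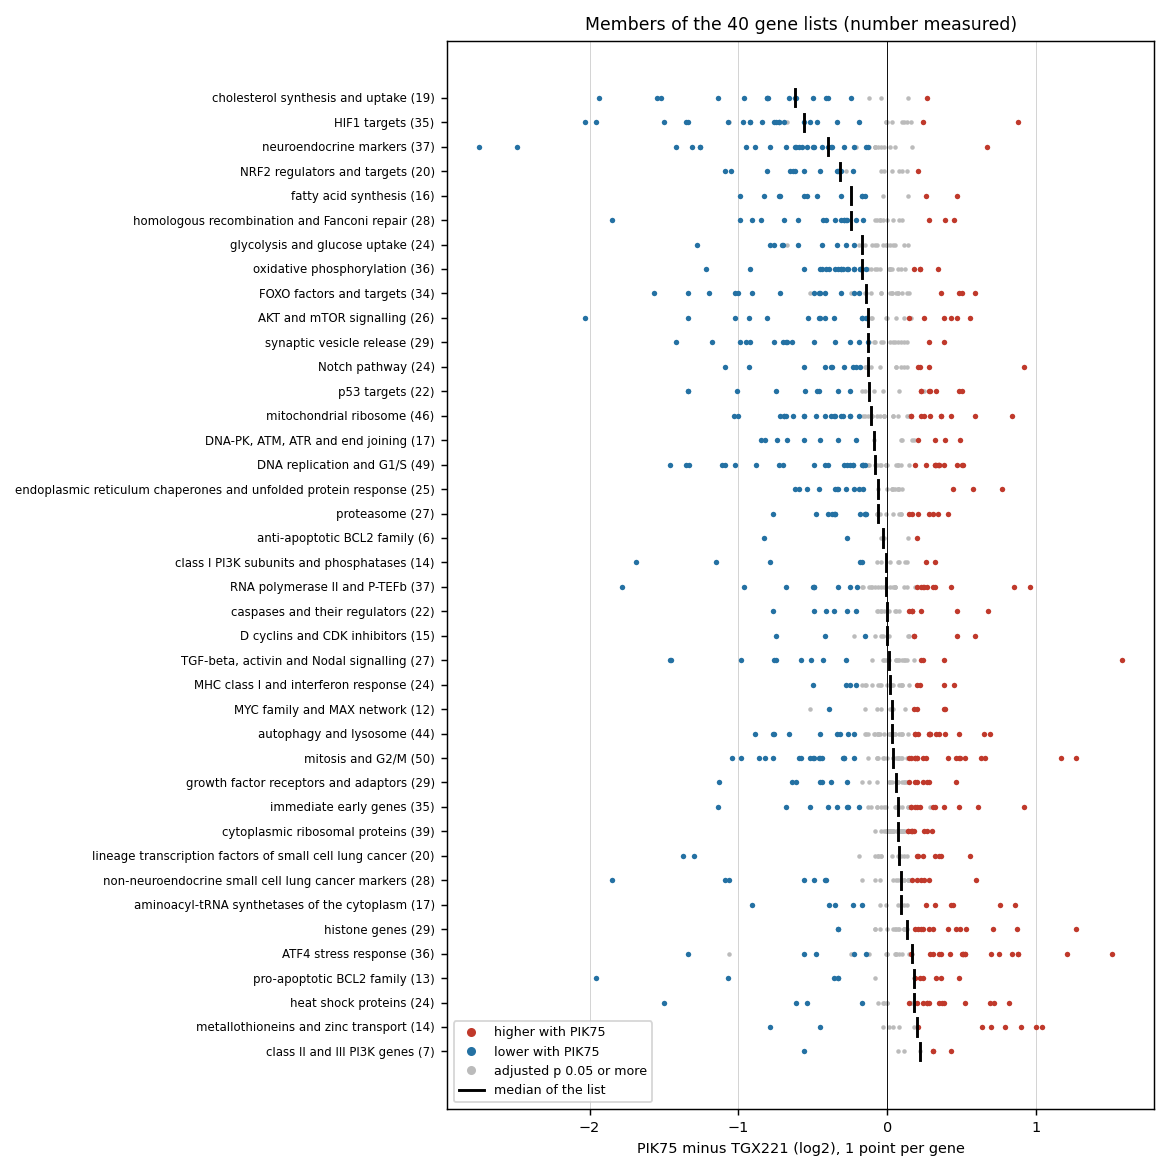
PIK75 minus TGX221 difference (log2, horizontal) of every measured member of 40 gene lists, with the number measured in parentheses, red and blue for members called higher and lower with PIK75, grey for those not called and black bars for list medians. Cholesterol synthesis (median -0.62) and HIF1 targets (-0.56) stand lowest and neuroendocrine markers (-0.40) next, against a median of 0.06 over all genes.

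Targets of HIF1, the transcription factor of the hypoxia response, were among the lists with the lowest values. Of 35 measured, 20 were lower and 2 higher with PIK75, with a median difference of -0.56. PDK1, which keeps pyruvate out of mitochondria, read 7.08, 7.44 and 7.14 with PIK75, 9.16, 9.44 and 9.16 with TGX221 and 9.85, 9.98 and 9.53 in the control. The 3 groups did not overlap, TGX221 stood between the others, and PIK75 was lower than TGX221 by 2.03 on the log2 scale (difference -2.03, SE 0.122, adjusted p = 5.06e-08). The mitophagy receptors BNIP3L and BNIP3 differed by -1.96 and -1.07, the mitochondrial protein FAM162A by -1.50, the lipid droplet protein HILPDA by -1.35 and the mTOR inhibitor DDIT4 by -1.34. DDIT4 read 10.60, 10.80 and 10.38 with PIK75 and 11.65, 11.80 and 12.34 with TGX221, so that TGX221 array 5 reached the control readings of 12.34 to 12.48.

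For many HIF1 targets the arrays of a group were far apart. The growth factor VEGFA read 8.81, 9.93 and 8.17 with PIK75, 9.67, 10.72 and 9.70 with TGX221, and 11.05, 11.38 and 9.97 in the control. Its inhibitor groups overlapped and its difference of -1.06 (SE 0.434) did not pass the test (adjusted p = 0.0628), nor did those of MXI1 (-0.52, adjusted p = 0.12) and PFKFB3 (-0.67). Array 3 was the highest of its group in all 3 groups for 17 of the 35 targets (48.6%), against 3.23% of all genes. The median of the targets, taken against the control mean, was -1.15, -0.77 and -0.94 on PIK75 arrays 1, 3 and 5, and -0.46, -0.08 and -0.35 on TGX221 arrays 2, 3 and 5. The control arrays 1, 3 and 5 stood at 0.06, 0.20 and -0.25, so TGX221 overlapped with control and PIK75 did not overlap with either. On arrays of the same number, 3 and 5, TGX221 stood below control. With any 1 array left out, 15 to 22 targets were lower with PIK75. In a fit that also held a term for the array number, 22 targets were lower and 2 higher. Only ANKRD37 was called between TGX221 and control among these targets, at 8.56, 8.91 and 8.92 against 9.37, 9.36 and 9.09. STC2 and ANKZF1 were the members higher with PIK75, and HIF1A, which encodes the factor itself, was lower by 0.19 on the log2 scale (difference -0.19).

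Glycolysis, to which HIF1 targets contribute, had 10 of 24 members lower and none higher, with a median of -0.17. The share lower was 41.7%, against 22.3% of all genes and 45.8% of the brightest class. HK2, the first enzyme of the pathway, read 8.92, 9.57 and 9.05 with PIK75 and 10.43, 10.90 and 10.07 with TGX221 (-1.28, SE 0.335, adjusted p = 0.00741). PFKM differed by -0.76, LDHA by -0.71, PGK1 by -0.70 and ENO1 by -0.60, while GAPDH differed by -0.07 and was not called. PGK1 read 12.92, 13.10 and 12.94 with PIK75, 13.63, 13.73 and 13.70 with TGX221 and 13.92, 14.04 and 13.86 in the control, with no overlap among the 3 groups. With 1 array left out, 9 to 12 members were lower.

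Because HIF1 binds the letters ACGTG or GCGTG, the 250 bases before the gene start were searched on both strands in the RefSeq promoter table (GRCh38.p14). Of 27 HIF1 targets with a promoter in the table, 20 (74.1%) held either word, as did 13 of 21 glycolysis genes (61.9%) and 43.1% of all 27305 promoters. Of the called lower targets, 13 of 17 held it. A match describes the letters and is not a site. The promoters of FAM162A (chr3:122383932-122384181, plus strand), DDIT4 (chr10:72273674-72273923, plus strand) and PGK1 (chrX:78103998-78104247, plus strand) are shown 5′ to 3′ for members that were lower together, with either word, on either strand, in capitals. They hold 4, 3 and 3 matches. Promoters were shown only for called members that hold a match, whereas those of PDK1, EGLN3, P4HA2 and PFKM held none.
FAM162A: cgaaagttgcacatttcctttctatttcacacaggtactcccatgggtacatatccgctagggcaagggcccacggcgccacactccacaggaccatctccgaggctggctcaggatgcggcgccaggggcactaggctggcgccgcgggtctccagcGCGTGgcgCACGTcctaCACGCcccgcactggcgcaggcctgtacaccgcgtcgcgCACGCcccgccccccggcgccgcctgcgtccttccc
DDIT4: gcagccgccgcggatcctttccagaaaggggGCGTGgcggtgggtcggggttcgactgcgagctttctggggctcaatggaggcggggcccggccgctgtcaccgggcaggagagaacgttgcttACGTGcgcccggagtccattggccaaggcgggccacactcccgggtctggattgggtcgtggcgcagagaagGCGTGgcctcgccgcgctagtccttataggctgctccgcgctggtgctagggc
PGK1: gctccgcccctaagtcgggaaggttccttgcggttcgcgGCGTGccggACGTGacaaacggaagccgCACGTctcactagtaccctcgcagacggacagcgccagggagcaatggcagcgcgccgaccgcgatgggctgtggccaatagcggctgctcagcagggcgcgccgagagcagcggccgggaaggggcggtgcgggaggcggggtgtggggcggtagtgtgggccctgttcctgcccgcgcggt

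**Figure D4:**
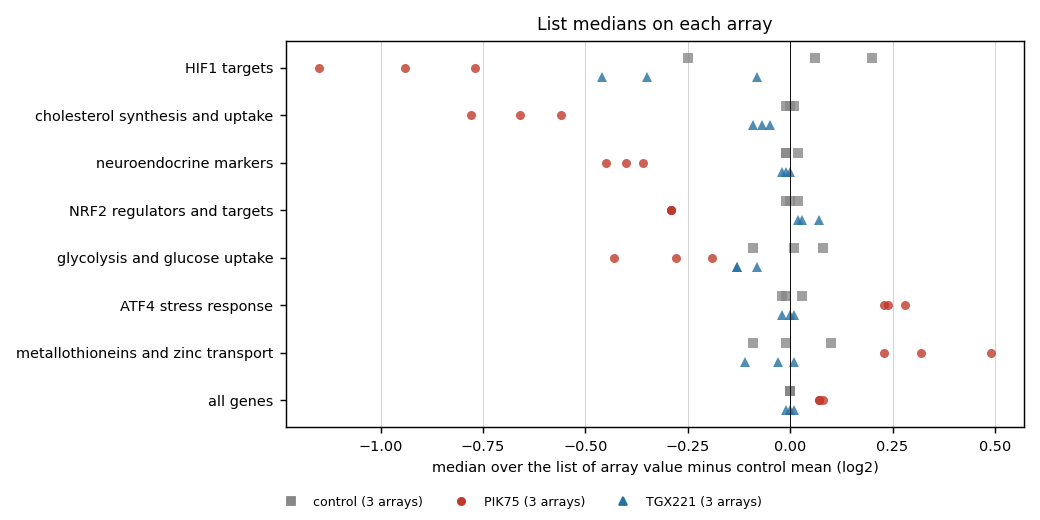
Median over each list of the array value minus the control mean (log2, horizontal) on each of the 9 arrays, with squares for control, circles for PIK75 and triangles for TGX221. For HIF1 targets the TGX221 arrays (-0.46 to -0.08) lie above PIK75 (-1.15 to -0.77) and overlap with control (-0.25 to 0.20), whereas for cholesterol synthesis TGX221 stays at -0.09 to -0.05 and PIK75 at -0.78 to -0.56.

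Cholesterol synthesis had the lowest median of the lists. Of 19 measured genes, 15 were lower and 1 higher with PIK75, with a median of -0.62, and 14 or 15 were lower with any 1 array left out. STARD4, which carries cholesterol between membranes, read 8.49, 8.57 and 8.60 with PIK75, 10.50, 10.50 and 10.47 with TGX221 and 10.85, 10.86 and 10.70 in the control. Its inhibitor difference was -1.94 (SE 0.058, adjusted p = 5.4e-10), and it was also lower with TGX221 than in the control (-0.31, adjusted p = 0.0356). SQLE and HMGCS1, enzymes of the sterol pathway, differed by -1.55 (SE 0.0641) and -1.52 (SE 0.0505). HMGCS1 read 9.66, 9.71 and 9.64 with PIK75 and 11.13, 11.23 and 11.21 with TGX221, near the control readings of 11.26 to 11.31. ACAT2 (-1.14), TM7SF2 (-0.96), LSS (-0.81), INSIG1 (-0.81) and MSMO1 (-0.80) followed, and MVK was the 1 gene higher (0.27). SREBF2, which encodes the sterol-responsive factor of the pathway, was at -0.12 and not called. The sterol element TCACNCCAC was in 1 of 17 promoters of the list (5.88%) and in 0.875% of all. That match was in SREBF2, and none of the 13 lower members with a promoter in the table held it.

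Fatty acid synthesis had 11 of 16 genes lower and 2 higher (median -0.24). The desaturase SCD read 10.55, 10.59 and 10.39 with PIK75 and 11.38, 11.64 and 11.49 with TGX221 (-0.99, SE 0.0861). ELOVL7 and ELOVL5, which lengthen fatty acids, differed by -0.83 and -0.54, and the carboxylase ACACA by -0.73. FASN itself differed by -0.15, whereas SCD5 was higher by 0.47.

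Neuroendocrine markers were lower as a group. Of 37 measured, 25 were lower with PIK75 and 1, SYT11, was higher (0.67), with a median of -0.40. The share lower was 67.6%, against 22.3% of all genes and 45.8% of the brightest class. With 1 array left out, 23 to 25 were lower. After CALB1, the members with the smallest p were SNAP25 of the vesicle fusion machinery (-1.42, SE 0.0529), the amine-synthesizing enzyme DDC (-1.26, SE 0.05) and SEZ6L (-1.31, SE 0.0526). DDC read 11.37, 11.36 and 11.39 with PIK75, 12.70, 12.58 and 12.61 with TGX221 and 12.59, 12.55 and 12.60 in the control, so TGX221 and control overlapped. The granule protein CHGA, used in diagnosis, read 12.77, 12.75 and 12.76 against 12.92, 12.83 and 12.90 and missed the threshold (-0.12, adjusted p = 0.0502). SYP, another diagnostic marker, overlapped between the inhibitors (9.24 to 9.48 and 9.38 to 9.57, difference -0.08).

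Synaptic vesicle release genes had 15 of 29 lower (51.7%, against 45.8% in the brightest class of all genes) and 2 higher (median -0.13). RAB3C, a vesicle GTPase, differed by -1.18, with another of its probe sets called the other way. The priming factor CADPS differed by -0.92 and the amine transporter SLC18A1 by -0.70. Of 20 transcription factors of the small cell lineage, 7 were higher (35%, against 25.1% of all genes) and 2 lower. Their median of 0.08 was near the 0.06 of all genes and lay below 0 on both spike-in scalings (-0.21 and -0.07), and 5 to 7 were higher with 1 array left out. SOX11 (-1.37, SE 0.0518) and ST18 (-1.30, SE 0.09) were the 2 lower, and ONECUT2 (0.56) and NFIB (0.35) led those higher. Among genes of non-neuroendocrine small cell lung cancer, 6 of 28 were higher and 7 lower. The adhesion receptor CD44 read 7.53, 7.39 and 7.20 with PIK75 and 9.13, 9.26 and 9.27 with TGX221 (-1.85, SE 0.0851). That difference rests on 1 probe set: the other 12 lay between -0.11 and 0.22, of which 11 were not called and 1 was called higher. ANXA2 (-1.09) and S100A10 (-1.06), which form a complex, were also lower. LGALS3 was higher (0.60). The count of higher genes dropped to 3 without PIK75 array 5 or without TGX221 array 5.

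Of 14 genes measured in the list of class I PI3K subunits and opposing phosphatases, 5 were lower and 2 higher (median -0.01). That is 50% called, near the 47.4% of all genes, and 3 were lower without TGX221 array 2. The 5 lower genes include PIK3R4 (-0.18), which encodes a regulatory subunit of class III rather than class I. PIK3R3, a regulatory subunit, read 9.62, 9.55 and 9.58 with PIK75, 11.22, 11.37 and 11.23 with TGX221 and 11.40, 11.41 and 11.40 in the control (-1.69, SE 0.0534, adjusted p = 7.85e-10). PIK3CB, the catalytic beta isoform, read 6.96, 7.09 and 7.13 with PIK75 and 8.19, 8.25 and 8.19 with TGX221 (-1.15, SE 0.0572). The main regulatory subunit PIK3R1 differed by -0.79 (SE 0.0632). PIK3CD, the delta isoform, was higher with PIK75 by 0.32 (SE 0.0597), a call that was lost on the poly-A spike-in scaling (0.17), and PIK3CG, the gamma isoform, was not called (0.02, 95% interval -0.15 to 0.18). Of 7 other class II and III genes, the catalytic subunit PIK3C2A was lower (-0.56) and the autophagy partners ATG14 (0.43), UVRAG (0.31) and BECN1 (0.31) were higher. The PIK3C2A call was lost with the mean of its probe sets (-0.10, adjusted p = 0.134). The UVRAG and BECN1 calls were lost on both spike-in scalings, and that of ATG14 on the hybridization one (0.14, adjusted p = 0.121).

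Downstream, 13 of 26 AKT and mTOR genes were lower (50%, against 45.8% in the brightest class of all genes) and 6 higher. Their median was -0.13, or 0.03 counting every probe set. DEPTOR, an mTOR-binding inhibitor, had the widest difference, at 6.35, 6.28 and 5.86 with PIK75 against 8.15, 8.28 and 8.14 with TGX221 (-2.03, SE 0.11). Its PIK75 levels lie in the range of the lowest class of brightness, so no fold is given. TBC1D7, a subunit of the TSC complex, differed by -1.02, the kinase GSK3B by -0.93 and the GTPase RRAGB by -0.81. AKT1 (-0.14, adjusted p = 0.0447) and MTOR (-0.17, adjusted p = 0.0306) were called by a small margin, and both calls were lost when any of several single arrays was left out. AKT2 differed by -0.45, with another probe set called at 0.29. Receptors and adaptors were split at 7 higher and 7 lower of 29 (24.1% each, near the 25.1% and 22.3% of all genes). IGF2R (-1.13), KIT (-0.61) and MET (-0.44) were lower and the adaptor GRB2 was higher (0.46). Without TGX221 array 3, 4 of the 29 were higher. IGF1R differed by -0.45 but had other probe sets called the other way, and INSR (0.06, 95% interval -0.09 to 0.20) and IRS2 (0.13, adjusted p = 0.0527) were not called. Another probe set of each was called higher, at 0.28 for INSR and 0.35 for IRS2, and the mean of the probe sets was called for both (0.13 and 0.24). IRS2 was also called after cyclic loess (0.25, adjusted p = 0.00116).

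FOXO factors and targets, which PI3K signalling is known to restrain, had 14 of 34 lower and 4 higher (median -0.14, or 0.02 counting every probe set). The share lower was 41.2%, against 22.3% of all genes and 45.8% of the brightest class. GADD45A, a growth arrest gene, read 8.99, 9.13 and 9.09 with PIK75 and 10.37, 10.49 and 10.37 with TGX221 (-1.34, SE 0.063). SESN3 differed by -1.57, CCNG2 by -1.20 (another probe set was called the other way) and YPEL2 by -1.02. CDKN1B, an inhibitor of cyclin-dependent kinases, was higher by 0.59, as were SESN2 (0.50), KLF6 (0.48) and FOXO1 (0.36). FOXO3 differed by -0.45. The FOXO element GTAAACA was in 2 of 30 promoters of the list (6.67%) and in 2.98% of all, and in 1 of 12 lower and 0 of 4 higher members.

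Cell death genes were divided. Of 13 pro-apoptotic BCL2 family genes, 6 were higher and 5 lower with PIK75, and of 6 anti-apoptotic genes 1 was higher and 2 lower. PMAIP1, which encodes the BH3-only protein NOXA, read 13.11, 13.07 and 12.80 with PIK75 and 12.55, 12.53 and 12.47 with TGX221 (0.48, SE 0.0728). BCL2L11, which encodes BIM, was higher by 0.19, and BID was lower by 0.36 on the log2 scale (difference -0.36). Among protective genes, BCL2L2 differed by -0.83 and BCL2L1 by -0.27. The BCL2L1 call was lost after cyclic loess (-0.17, adjusted p = 0.118) and with the mean of its probe sets (-0.08, adjusted p = 0.265). BCL2L10 was higher by 0.20, a call that was lost without PIK75 array 3 or 5 or TGX221 array 3. MCL1 overlapped, at 12.02 to 12.04 with PIK75 and 12.01 to 12.08 with TGX221 (-0.02, 95% interval -0.12 to 0.08). Its other probe sets went both ways, with calls at -0.55, -0.28 and 0.26. The brightest BCL2 probe set was not called (0.14), and its other probe sets were called at -0.94 and -0.42. Of 22 caspases and regulators, 7 were higher and 6 lower. They included BIRC5, the inhibitor survivin (0.68), DIABLO (0.47), CASP6 (-0.77) and BIRC6 (-0.49), and 3 were higher without TGX221 array 5.

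Of 49 genes of DNA replication, 21 were lower (42.9%) and 12 higher (24.5%), near the shares of the brightest class of all genes (45.8% and 22.6%). Their median of -0.08 turned to 0.02 after cyclic loess. RRM2, the ribonucleotide reductase subunit that supplies deoxynucleotides, read 11.20, 11.07 and 11.31 with PIK75, 12.62, 12.64 and 12.69 with TGX221 and 12.57, 12.57 and 12.72 in the control (-1.46, SE 0.0675, adjusted p = 7.5e-09). The clamp loader subunit RFC3 differed by -1.35, the polymerase subunit POLE2 by -1.11 and the primase PRIM1 by -1.02. Helicase subunits did not share one direction: MCM5 was higher (0.51), MCM2 was higher (0.26), MCM3 was lower (-0.16) and MCM6 and MCM7 were not called. PCNA was at -0.04.

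The E2F element TTTNNCGC was in 20 of 44 promoters of the replication list (45.5%) and in 5.93% of all promoters. It was in 9 of 19 promoters of members lower and in 2 of 10 of members higher. Those of RRM2 and PRIM1 did not hold it, and the promoters shown were chosen among called members that do. The promoters of RFC3 (chr13:33817899-33818148, plus strand) and POLE2 (chr14:49688215-49688464, minus strand), 2 of the lower members, hold 1 match each on either strand, in capitals.
RFC3: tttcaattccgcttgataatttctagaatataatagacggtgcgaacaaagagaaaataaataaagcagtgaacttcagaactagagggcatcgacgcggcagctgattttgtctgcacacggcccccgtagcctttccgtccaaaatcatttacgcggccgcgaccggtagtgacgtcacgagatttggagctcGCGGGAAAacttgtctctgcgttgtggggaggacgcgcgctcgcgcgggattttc
POLE2: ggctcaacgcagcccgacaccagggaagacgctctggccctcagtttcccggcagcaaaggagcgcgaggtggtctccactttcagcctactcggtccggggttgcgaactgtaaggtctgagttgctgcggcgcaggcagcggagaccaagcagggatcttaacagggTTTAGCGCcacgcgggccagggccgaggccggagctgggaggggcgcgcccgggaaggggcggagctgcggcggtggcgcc

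Mitotic genes were evenly split, with 17 of 50 higher and 17 lower (median 0.04). CDCA5, which protects sister chromatid cohesion, read 11.98, 11.90 and 11.91 with PIK75 and 10.79, 10.69 and 10.79 with TGX221 (1.17, SE 0.0514). CDCA3 was higher by 1.27 and the mitotic factor FOXM1 by 0.66. The kinetochore subunits SPC24 (-1.04) and SPC25 (-0.98), the motor KIF4A (-0.77) and the checkpoint protein BUB3 (-0.82) were lower. The kinase CDK1 (-0.07) and TOP2A (-0.07) were not called. Of 15 D cyclins and CDK inhibitors, 4 were higher and 3 lower, with CCND3 (0.47) and CDKN1B higher and CDKN1A, which encodes p21, lower. CDKN1A read 9.57, 9.63 and 9.56 with PIK75 and 10.26, 10.43 and 10.30 with TGX221 (-0.75, SE 0.0814). CCND1 overlapped (0.01, 95% interval -0.14 to 0.16). Of 22 p53 targets, 9 were lower (40.9%, against 45.8% in the brightest class of all genes) and 7 higher. Those lower were led by TP53INP1 (-1.34), GADD45A and RRM2B (-1.01).

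Homologous recombination and Fanconi genes had 16 of 28 lower and 3 higher (median -0.24). The helicase BRIP1 read 9.48, 9.30 and 9.28 with PIK75 and 10.21, 10.35 and 10.23 with TGX221 (-0.91, SE 0.0701), without overlap. The damage kinase ATM differed by -0.85 and the nuclease MRE11 by -0.69. In the list of DNA-PK, ATM, ATR and end joining, which repeats ATM, 8 of 17 were lower (47.1%) and 4 higher. The brightest class of all genes had 45.8% lower. PRKDC, the catalytic subunit of DNA-PK, read 10.01, 9.95 and 9.79 with PIK75 and 10.64, 10.85 and 10.71 with TGX221 (-0.82, SE 0.0714), and TP53BP1 (-0.67) and MDC1 (-0.74), which gather at breaks, were lower.

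The ATF4 response, through which cells react to amino acid shortage and other stress, leaned higher with PIK75. Of 36 members, 18 were higher and 5 lower (median 0.17), but centring on the hybridization spike-ins moved the median to -0.12, with 12 higher and 16 lower. SLC3A2 read 12.03, 11.72 and 11.46 with PIK75, 10.26, 10.19 and 10.23 with TGX221 and 10.26, 10.22 and 10.09 in the control (1.51, SE 0.108). TRIB3, a pseudokinase that binds AKT, was higher by 1.21 (SE 0.0702), PCK2 by 0.88 and SLC7A5, the transporter partner of SLC3A2, by 0.75. ATF4 itself was higher by 0.52. The members lower included DDIT4, which is also a HIF1 target, and the cystine transporter SLC7A11 (-0.56), and ASNS was at 0.10 and not called. Without PIK75 array 5, or without TGX221 array 5, 3 members were lower. The amino acid response element TGATGNAA was in 4 of 30 promoters (13.3%) and in 3.19% of all, and in 2 of 17 higher and 0 of 4 lower members.

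Cytoplasmic tRNA synthetases had 6 of 17 higher and 5 lower, with SARS1 (0.86, another probe set was called the other way), CARS1 (0.76) and RARS1 (0.44) higher and LARS1 lower (-0.91). Of 25 chaperones of the endoplasmic reticulum, 11 were lower (44%, against 45.8% in the brightest class of all genes) and 3 higher (median -0.06), among them HERPUD1 (0.77) and the disulfide isomerase P4HB (0.58) higher and PDIA6 (-0.62) and CRELD2 (-0.46) lower. Heat shock genes had 13 of 24 higher and 4 lower (median 0.18, or -0.10 with 4 higher on the hybridization spike-in scaling). HSPB1, a small heat shock protein, went furthest and was lower, at 9.32, 9.35 and 9.20 with PIK75 against 10.85, 10.77 and 10.73 with TGX221 (-1.50, SE 0.0574). HSPA4 (0.82) and the mitochondrial HSPA9 (0.69) were higher, and the mitochondrial HSPE1 was lower (-0.54).

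Metallothioneins, which bind zinc, and zinc transporters had 7 of 14 higher and 2 lower (median 0.20, or -0.09 on the hybridization spike-in scaling, where 6 were higher and 6 lower). SLC30A1, which exports zinc, read 10.40, 10.65 and 10.26 with PIK75, 9.35, 9.47 and 9.38 with TGX221 and 9.55, 9.61 and 9.55 in the control (1.04, SE 0.0838). MT1H read 10.40, 11.02 and 10.73 with PIK75 and 9.60, 9.88 and 9.66 with TGX221 (1.00, SE 0.127), and MT1G was higher by 0.90. The importers SLC39A10 (-0.79) and SLC39A14 (-0.45) were lower, whereas the exporter was higher. Array 3 was the highest of its group in all 3 groups for 6 of the 14 genes (42.9%), and its part in the result was not tested. Metallothionein genes are near-identical copies and their probe sets may share signal. The metal element TGCACNC or TGCGCNC was in 5 of 8 promoters of the list (62.5%), among them those of all 4 higher members with a promoter in the table, and in 24.7% of all promoters. The promoters of SLC30A1 (chr1:211579162-211579411, minus strand) and MT1H (chr16:56669564-56669813, plus strand) hold 1 and 8 matches, in capitals.
SLC30A1: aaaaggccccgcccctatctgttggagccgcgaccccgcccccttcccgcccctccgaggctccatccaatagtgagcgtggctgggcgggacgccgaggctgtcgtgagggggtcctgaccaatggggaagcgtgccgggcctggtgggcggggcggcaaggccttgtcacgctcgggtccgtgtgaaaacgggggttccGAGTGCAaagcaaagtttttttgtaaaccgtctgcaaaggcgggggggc
MT1H: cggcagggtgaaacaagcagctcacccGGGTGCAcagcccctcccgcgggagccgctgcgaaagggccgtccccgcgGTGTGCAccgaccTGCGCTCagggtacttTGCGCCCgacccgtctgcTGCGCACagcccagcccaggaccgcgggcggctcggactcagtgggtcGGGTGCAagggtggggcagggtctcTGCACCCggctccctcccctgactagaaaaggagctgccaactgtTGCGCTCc

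Regulators and targets of NRF2, the factor of the oxidant response, had 12 of 20 lower and 1 higher (median -0.32, and -0.29 on each PIK75 array against control). GSR, which regenerates glutathione, read 8.24, 7.96 and 8.12 with PIK75 and 9.09, 9.12 and 9.24 with TGX221 (-1.05, SE 0.0813). NQO1 differed by -0.81, GCLC, the rate-limiting enzyme of glutathione synthesis, by -0.65 and NFE2L2, which encodes NRF2, by -0.63. PGD differed by -1.09 with a pair of other probe sets called the other way, and HMOX1 (-0.28) was not called.

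Respiratory chain genes had 20 of 36 lower and 4 higher (median -0.17). UQCRC2 of complex III read 11.12, 11.09 and 11.11 with PIK75 and 12.37, 12.32 and 12.29 with TGX221 (-1.22, SE 0.0498), and the complex I subunits NDUFB8 (-0.92), NDUFB1 (-0.56) and NDUFB3 (-0.45) were lower. Of 46 mitochondrial ribosome genes, 19 were lower (41.3%, against 45.8% in the brightest class of all genes) and 10 higher. MRPL30 (-1.03), MRPL48 (-0.69) and MRPL39 (-0.69) were lower and MRPS12 was higher (0.84). Cytoplasmic ribosomal proteins stayed close to 0: 9 of 39 were higher and none lower (median 0.07), and on the hybridization spike-in scaling none was higher and 30 were lower. The widest difference among them was FAU (0.30).

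Histone genes had 13 of 29 higher and 2 lower (median 0.13), with medians of -0.16 and -0.02 on the hybridization and poly-A spike-in scalings. H2BC5 read 11.25, 11.18 and 10.95 with PIK75 and 9.89, 9.90 and 9.77 with TGX221 (1.27, SE 0.0747), and H2AC8 (0.87), H2BC6 (0.71) and H2BC12 (0.49) were higher. The replacement variants H2AZ1 and MACROH2A1 were lower, both by 0.33 on the log2 scale (difference -0.33). Clustered histone genes are near-identical and their probe sets may share signal.

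Of 37 genes of RNA polymerase II and P-TEFb, the kinase that releases paused polymerase, 10 were higher and 9 lower (median -0.01). Those shares, 27% and 24.3%, were near the 25.1% and 22.3% of all genes. HEXIM1, which holds P-TEFb inactive, read 7.74, 7.70 and 7.60 with PIK75, 9.44, 9.56 and 9.40 with TGX221 and 9.55, 9.64 and 9.61 in the control (-1.78, SE 0.0609, adjusted p = 1.14e-09). CCNT1 and CDK9, the cyclin and kinase of P-TEFb, were higher by 0.96 (SE 0.0662) and 0.85 (SE 0.0706). CDK9 read 10.44, 10.28 and 10.13 against 9.45, 9.42 and 9.41, without overlap. MNAT1 of the CDK7 complex differed by -0.68.

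Of 35 immediate early genes, 11 were higher (31.4%) and 8 lower (22.9%), against 25.1% and 22.3% of all genes, and 7 were higher without TGX221 array 2. The AP-1 subunits JUND (-1.14, another probe set was called the other way) and JUN (-0.52) were lower, while DUSP6 (0.61) and SPRED2 (0.92), which restrain ERK signalling, were higher. In the MYC network 4 of 12 were higher and 1, MLXIP (-0.39), lower. MYCN, a MYC family member of neuroendocrine tumours, read 13.91, 13.86 and 13.89 with PIK75 and 13.64, 13.72 and 13.74 with TGX221 (0.18, adjusted p = 0.0104), and changed sign on the hybridization spike-in scaling (-0.10). MYC was higher by 0.39, a call lost on both spike-in scalings (0.10, adjusted p = 0.293, and 0.24, adjusted p = 0.05), where no gene of the network was higher. MYCL overlapped (0.04, 95% interval -0.11 to 0.19).

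Notch pathway genes had 10 of 24 lower (41.7%, against 45.8% in the brightest class of all genes) and 4 higher. Their median was -0.13, or 0.05 counting every probe set. The coactivators MAML3 (-1.09) and MAML2 (-0.93) and the neural HES6 (-0.38) were lower and HEY2 was higher (0.92, another probe set was called the other way). Without PIK75 array 3, 2 Notch genes were higher. In TGF-beta, activin and Nodal signalling 9 of 27 were lower and 4 higher. LEFTY1 read 8.91, 8.79 and 8.95 with PIK75 and 7.26, 7.26 and 7.38 with TGX221 (1.58, SE 0.0595), whereas the ligand TGFB2 (-1.46), the receptor TGFBR1 (-1.45, another probe set was called the other way) and the receptor ACVR1 (-0.98) were lower. Without PIK75 array 1, 8 were higher. MHC class I and interferon genes had 4 of 24 in each direction, and IFIT1 was lower with PIK75 than TGX221 (-0.50) and lower with TGX221 than control (-0.25, adjusted p = 0.0414). Of 44 autophagy and lysosome genes, 13 were higher (29.5%) and 9 lower (20.5%), near the 25.1% and 22.3% of all genes. ATG4A (-0.89), ATG2B (-0.76, another probe set was called the other way) and NEU1 (-0.77) were lower and the protease CTSK was higher (0.69). Of 27 proteasome genes, 11 were lower (40.7%, against 45.8% in the brightest class of all genes) and 7 higher. Their median of -0.06 turned to 0.03 after cyclic loess. PSMA4 (-0.77), PSMA1 (-0.48) and PSMD8 (-0.37) were lower and PSMD12 was higher (0.41, another probe set was called the other way).

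For most genes that differed between the inhibitors, TGX221 lay nearer the control than PIK75 did. Of the 8601 genes called without overlap and at or above a mean of 6, 391 (4.55%) had the TGX221 mean farther from the control mean, 320 of them higher and 71 lower with PIK75. STC2, a secreted glycoprotein, led those higher, at 10.23, 10.25 and 9.85 with PIK75, 9.03, 9.62 and 9.04 with TGX221 and 9.77, 10.19 and 9.20 in the control. The control arrays overlapped with those of both inhibitors, and the difference was 0.88 (SE 0.217, adjusted p = 0.00526). ADGRL2, an adhesion receptor, read 8.28, 8.09 and 8.27 with PIK75, 7.43, 7.50 and 7.54 with TGX221 and 7.71, 8.02 and 7.86 in the control, with no overlap among groups (0.73, SE 0.0787). FKBP7, a prolyl isomerase, behaved alike, at 8.71, 8.47 and 8.64, 7.91, 8.03 and 7.98, and 8.29, 8.29 and 8.36 (0.63, SE 0.0642). Both were lower with TGX221 than in the control (-0.38, adjusted p = 0.0479, and -0.34, adjusted p = 0.0367), as was the adhesion molecule ICAM5 (-0.37, adjusted p = 0.0483).

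ANKRD12 (0.69) was in the same group, with another probe set at -0.69. The 5 genes lowest in this class were RPL7AP9 (-0.36), TAF15 (-0.34), LINC00342 (-0.33), SPRYD4 (-0.33) and FAAP100 (-0.32). LINC00342 read 5.86, 5.88 and 5.75 with PIK75 and 5.91, 5.91 and 5.86 in the control, which overlapped, and 6.10, 6.19 and 6.19 with TGX221. It was higher with TGX221 than in the control by 0.27 (adjusted p = 0.042), as were RPL7AP9 (0.40, adjusted p = 0.0395) and TAF15 (0.31, adjusted p = 0.0395). RPL7AP9 is a ribosomal pseudogene whose probe set may read other copies, and 3 other probe sets of TAF15, an RNA-binding protein, were higher with PIK75 (0.83, 0.96 and 0.39).

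**Figure D5:**
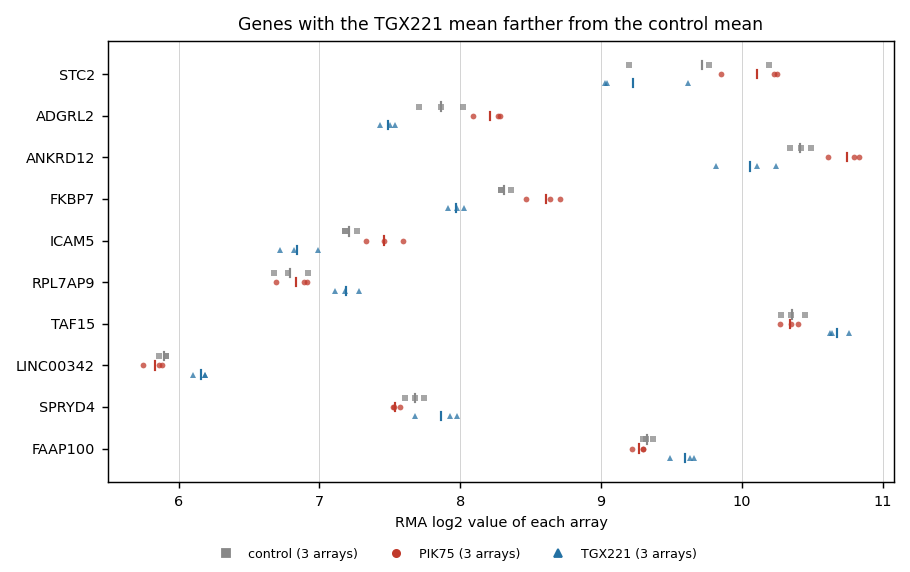
RMA log2 value of each array (horizontal) for the 10 genes with the largest differences among the 391 whose TGX221 mean lies farther from the control mean, with squares for control, circles for PIK75, triangles for TGX221 and ticks for the mean of 3 arrays. For ADGRL2 and FKBP7 the 3 groups do not overlap, with control between the inhibitors, whereas for STC2 the control arrays (9.20 to 10.19) spread across both.

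The genes farthest from control with TGX221 differed in how PIK75 placed them. GPR160, an orphan receptor, read 7.94, 8.26 and 8.13 with TGX221 against 8.93, 9.12 and 8.67 in the control (-0.80, SE 0.148, adjusted p = 0.0363), and PIK75 was lower still, at 6.52, 7.16 and 6.90. The sodium channel SCN9A (-0.59) and the glycogen regulator PPP1R3C (-0.59) were also lower with both compounds, and PIK75 was lower than TGX221 by 1.11 and 0.73 on the log2 scale (differences -1.11 and -0.73). PWWP2B read 9.73, 9.50 and 9.78 with TGX221, 9.49, 9.58 and 9.51 with PIK75 and 9.11, 9.08 and 9.16 in the control. It was higher than control with TGX221 (0.56, adjusted p = 0.0254) and overlapped between the inhibitors (-0.15, adjusted p = 0.104). ZSWIM8, a ubiquitin ligase receptor of microRNA decay, was likewise higher with TGX221 (0.47, adjusted p = 0.0268) and at -0.05 between the inhibitors, and CPEB3, a translational regulator, was higher with TGX221 than in the control (0.48, adjusted p = 0.0395) and lower with PIK75 than TGX221 (-0.26, adjusted p = 0.0394).

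Each gene is read by its brightest probe set, and others do not always move with it. Of 10523 genes with more than 1 probe set, 1029 (9.78%) had probe sets called in both directions, and 50 (0.475%) had them at 1.5-fold or more in both. Besides CD44, the differences of CFAP43, ST18, JUND, ATG2B, MET and BCL2L1 rest on the brightest of 4 probe sets, with none of the other 3 called in the same direction. No other probe set was called in the same direction for PDK1 (others at -0.06 and 0.09), ZSCAN16-AS1 (-0.12 and -0.10) or CLDN11 (0.05 and 0.22). The same held, among other genes, for DEPTOR (other at 0.05), PIK3CB (0.07), TBC1D7, TP53INP1, YPEL2, MAML2, MAML3, S100A10, SLU7, BCL2L2, SPRED2, HERPUD1, ADGRL2, FKBP7 and MT1G. With the mean of the probe sets, the calls of NUP58 (0.07), SARS1 (0.05), HEY2 (0.11), ATG2B (-0.04), PSMD12 (0.10), LINC00342 (-0.10) and FAAP100 (-0.10) were lost. On both spike-in scalings the higher calls of NFIB and FAU were lost, and on the hybridization scaling those of GRB2 (0.17), DIABLO (0.19) and RARS1 (0.15).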

How the data were processed

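RNA from H69 cells was hybridized to 9 Affymetrix arrays, and the deposited values are log2 intensities per probe set, made by the authors with RMA per the submitters' processing notes, with the version not given in the sources used here. Depth has no meaning for arrays, and the 3 arrays per group limit the precision. Of the probe sets, 41091 carried 1 gene symbol, 1801 several and 11721 none, and 62 were controls. Each of 19775 genes was read by its brightest single-symbol probe set. limma 3.58.1 in R 4.3.3 (lmFit and eBayes) was fitted to all 9 arrays with 3 group means, with the Benjamini-Hochberg adjustment across every gene tested and 0.05 as the threshold. Intervals are 95%. Named were the 15 highest and 15 lowest genes, 5 in each direction with TGX221 farther from control, and up to 4 genes per list with the smallest p, among called genes without overlap and with a mean of at least 6. The other list members and the genes farthest from control with TGX221 were named after their values were seen. The members and lists were chosen with earlier results of these data known, so no list is independent support. Simulated data with the same 19775 genes returned 25 of 50 genes changed 1.25-fold, 46 of 50 changed 1.5-fold and 50 of 50 changed 2-fold. Apart from 50 genes changed 3-fold, no other gene was changed there. In the data 47.4% of genes were called, so those rates need not hold for this comparison. Over all genes, numbers shared between groups did not pair the arrays. Deviations from the group means correlated at 0.065 and 0.235 between same-numbered PIK75 and TGX221 arrays, and from -0.292 to 0.256 between differently numbered ones. Between same-numbered control and PIK75 arrays they correlated at -0.134, 0.122 and -0.046. Pairing within single lists, such as the HIF1 targets where array 3 was often highest, was not tested. The alternatives were other scalings, probe set rules, spread estimates and thresholds, a replicate block, and leaving out each array.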

Additional observations from a re-analysis of the deposited data

Results flagged for a closer look

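Signals outside the gene comparisons appeared in probe sets without a gene symbol. Probe set 227963_at had a mean of 9.26 with PIK75, 6.37 with TGX221 and 6.15 in the control, a PIK75 minus TGX221 difference of 2.89 (SE 0.094, limma adjusted p = 7.18e-09). Probe set 214078_at had means of 6.24, 8.87 and 9.11, a difference of -2.63 (SE 0.082). Among the 11721 probe sets without a symbol, 22.4% were called, 1966 higher and 663 lower with PIK75. Among the 1801 with several symbols, 39.5% were called, 384 higher and 328 lower.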

How the results depend on the processing

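With the arrays centred on hybridization spike-ins, 626 genes were higher and 11899 lower with PIK75 (19 and 1193 at 2-fold), and 95% of the calls were lower. Centred on poly-A spike-ins, 980 were higher and 5438 lower (34 and 816 at 2-fold), 6418 in all, and 84.7% were lower. The share was 55.2% after cyclic loess, 42% after centring on gene medians and 59.4% among genes at or above the median brightness, where 2605 were higher and 3815 lower. Counting every probe set gave 16828 calls, 8594 higher and 8234 lower (128 and 1005 at 2-fold). In that setting the median of p53 targets was 0.03, against -0.12 as reported. The median of DNA-PK, ATM, ATR and end joining was 0.04, against -0.09. Averaging the probe sets of a gene gave 35 higher and 231 lower at 2-fold. An adjusted p below 0.01 left 2804 higher, and a 1.5-fold minimum left 2012, of which 343 were higher and 1669 lower. Without 1 array, 7752 to 9243 genes were called, 3705 to 4844 higher and 4047 to 4399 lower, with 54 to 75 higher and 471 to 553 lower at 2-fold. The replicate block gave 7771 calls, 3756 higher and 4015 lower, on numbers that did not pair the arrays over all genes.

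With the mean of the probe sets, ANKRD12 read -0.02, TAF15 0.46, AKT2 0.01, IGF1R 0.06 and BCL2 -0.28. On the hybridization spike-in scaling, BCL2L10 read -0.09, MAX -0.08, RPL32 -0.01, RPL35 -0.04, RPS19 -0.10, PIK3CG -0.27, INSR -0.23, BCL2L11 -0.10, CCND1 -0.28, MYCL -0.25 and MYCN -0.10. The cause was not tested beyond the shift in the median of all genes (-0.23).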
